A study of Mus musculus with 6 samples.

Results

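The genes described here are 10 genes of platelets and of megakaryocytes, the bone marrow and yolk sac cells that shed platelets. They were taken by name: Pf4, Plek, Ppbp, Itga2b, Gp1bb, Gp5, Gp6, Gp9, Treml1 and Clec1b, out of 18193 genes with a probe set of their own on the array. On the array 13 probe sets were annotated to these 10 genes alone, and 1 more was shared between Gp1bb and its neighbour Septin5. The samples were embryoid bodies, the aggregates in which embryonic stem cells differentiate in suspension, made from the mouse D3 stem cell line and collected at 10 days. In 3 samples the bodies held gelatin-coated microspheres loaded with retinoic acid (RA), a metabolite of vitamin A and a ligand of nuclear receptors. In the 3 control samples the microspheres carried CellTracker Red, a fluorescent dye, and no RA is named. All 6 samples share the cell line, the gelatin coating, the LIF-free medium and the rotary culture. The RA dose and the ratio of microspheres to cells on these arrays are not named in the labels, and the effect of RA and that of leaving out the dye cannot be told apart. The labels call the samples triplicates without naming separate cultures, so p-values measure the spread between these arrays, which may be technical.

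Megakaryocytes arise from blood progenitors under the control of GATA and ETS family transcription factors, and in the mouse embryo the first ones appear in the yolk sac. Their granules store chemokines, and their surface carries the receptors with which platelets later bind von Willebrand factor, fibrinogen, collagen and podoplanin. An embryoid body that forms blood islands can hold such cells beside red cells, macrophages and endothelium. Each array measured whole bodies, so fewer cells of a type and less RNA per cell cannot be told apart in any result below.

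The start regions of 5 of the genes are shown because they belong to the genes whose signals differed most between the groups, and to Gp5, which did not pass the test. Each runs from 250 bases before to 50 bases after the transcript start, in RefSeq's GRCm38.p6 assembly, read 5′ to 3′ along the gene. Capitals mark matches on either strand to AGATAA or TGATAA, letters bound by GATA factors, or to CGGAAG or AGGAAG, letters bound by ETS factors. The Pf4 and Clec1b regions hold AGATAA shortly after the start, Gp5 holds it on the reverse strand as TTATCT in 2 places, and Plek and Ppbp hold none of these letters in this window.
Pf4 (chr5:90772185-90772484, plus strand): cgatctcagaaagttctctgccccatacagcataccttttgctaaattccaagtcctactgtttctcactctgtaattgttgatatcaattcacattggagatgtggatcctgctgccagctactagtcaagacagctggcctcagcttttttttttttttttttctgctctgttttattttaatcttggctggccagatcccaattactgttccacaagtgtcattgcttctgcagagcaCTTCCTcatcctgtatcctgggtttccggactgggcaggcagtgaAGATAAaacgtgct
Ppbp (chr5:90768268-90768567, plus strand): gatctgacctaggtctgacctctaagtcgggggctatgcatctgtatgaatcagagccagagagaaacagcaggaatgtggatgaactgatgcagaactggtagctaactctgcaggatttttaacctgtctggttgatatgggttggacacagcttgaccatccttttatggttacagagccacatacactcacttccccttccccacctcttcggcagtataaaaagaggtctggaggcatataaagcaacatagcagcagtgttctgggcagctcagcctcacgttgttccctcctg
Plek (chr11:17008669-17008968, minus strand): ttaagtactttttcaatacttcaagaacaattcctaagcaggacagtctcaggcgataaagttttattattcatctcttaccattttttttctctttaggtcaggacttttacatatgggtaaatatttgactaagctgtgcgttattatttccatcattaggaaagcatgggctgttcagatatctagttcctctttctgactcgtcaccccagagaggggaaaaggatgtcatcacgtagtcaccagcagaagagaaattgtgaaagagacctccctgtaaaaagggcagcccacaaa
Clec1b (chr6:129397047-129397346, plus strand): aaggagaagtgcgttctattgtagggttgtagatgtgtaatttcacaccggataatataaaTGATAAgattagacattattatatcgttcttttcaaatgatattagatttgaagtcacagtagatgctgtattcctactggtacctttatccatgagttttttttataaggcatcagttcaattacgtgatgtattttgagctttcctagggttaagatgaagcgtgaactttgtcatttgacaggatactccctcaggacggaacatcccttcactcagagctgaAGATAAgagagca
Gp5 (chr16:30310732-30311031, minus strand): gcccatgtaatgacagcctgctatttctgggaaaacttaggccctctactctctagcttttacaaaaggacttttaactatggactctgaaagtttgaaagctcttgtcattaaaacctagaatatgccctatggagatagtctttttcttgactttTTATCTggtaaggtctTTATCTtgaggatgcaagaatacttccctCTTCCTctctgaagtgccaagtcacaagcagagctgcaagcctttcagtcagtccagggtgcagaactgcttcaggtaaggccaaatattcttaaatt

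All 10 genes had a start region in the table, and 4 of the 10 held a GATA motif, against 18.6% of the 32851 start regions of the same length. An ETS motif was found in 5 of the 10, against 46.5% of all start regions. Pf4 and Gp5 held both kinds, and Plek, Ppbp and Treml1 held neither. Pf4 had the GATA motif at bases 37 to 42 after the start and Clec1b at bases 38 to 43. Itga2b held 2 copies of AGGAAG before the start and no GATA motif. A match is a description of letters, and no match says only that these letters are not in this window. Pf4 and Ppbp, which lie side by side on chromosome 5, start 3917 bases apart.

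**Figure D1:**
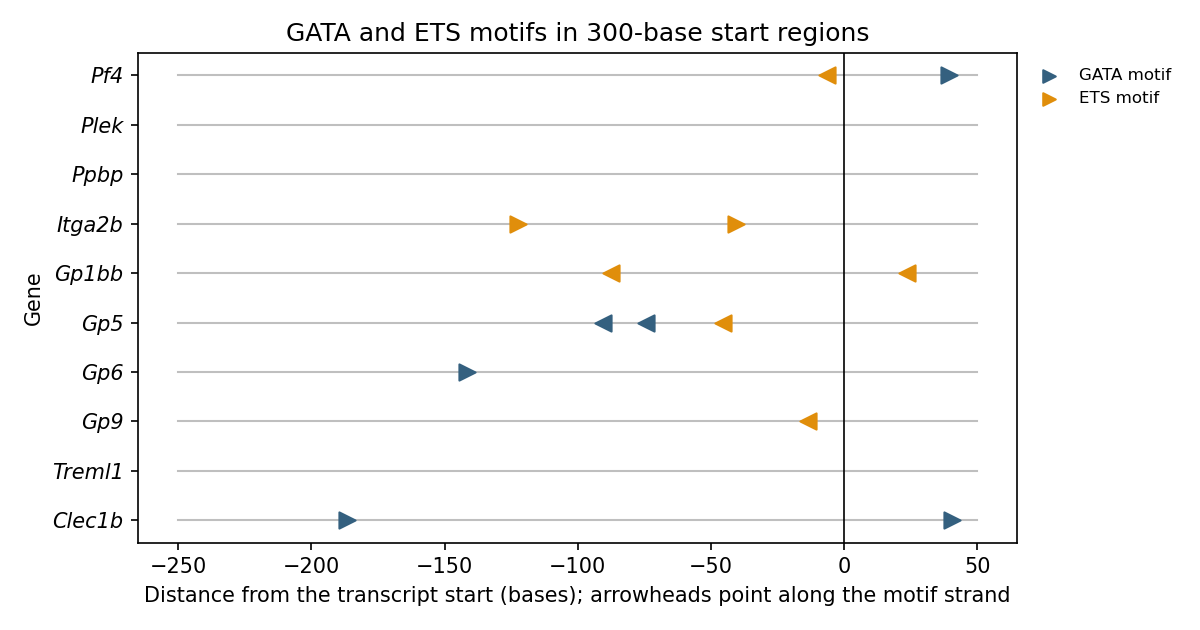
GATA motifs (blue) and ETS motifs (orange) in the start region of each of the 10 genes, by distance in bases from the transcript start. Arrowheads point along the strand that holds the motif, and the rows of Plek, Ppbp and Treml1 are empty.

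The deposited values are linear intensities that were not on a common scale: the trimmed mean signal of control array 3 was 108, and that of the other 5 arrays lay between 171 and 191. Levels below are therefore log2(intensity + 16) after quantile normalization, and log2 fold changes are RA minus control with the standard error (SE) of the limma fit. RA array 1 stood apart in RNA integrity, as its ratio of 3-prime to 5-prime Gapdh signal was 34.0, where the remaining 5 arrays had 3.06 to 4.74. The same ratio for actin was 7.42, 4.35 and 4.90 on RA arrays 1, 2 and 3. On control arrays 1, 2 and 3 it was 3.46, 3.35 and 4.24, below every RA array. RNA integrity by the actin ratio thus differed between the groups, and its part in the results was not tested. Genes were tested where the mean of their brightest probe set over all 6 arrays lay above 5.74 on the log2 scale, the 40th percentile of all probe sets. Of the 10 genes 7 passed this filter, and Gp6, Gp9 and Treml1 did not. No detection calls were used, so a level below 5.74 is open to background and a fold change that rests on it is too.

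Of the 10 genes 5 fell with RA and the other 5 did not pass the test. Pf4 was 29.7 times lower with RA, Plek 14.6 times, Clec1b 6.64 times, Ppbp 3.40 times and Itga2b 1.92 times. These sizes move with the pseudocount: with a pseudocount of 1 and of 64 the log2 fold change was -5.31 and -4.07 for Pf4, -4.95 and -2.66 for Plek, -3.09 and -2.06 for Clec1b, and -2.25 and -1.13 for Ppbp. All of these passed the test. Gp1bb and Gp5 had log2 fold changes of -0.31 ± 0.29 and -0.27 ± 0.19 (SE) and did not pass the test. In the fit over 13608 genes with limma and Benjamini-Hochberg adjustment, 5 of the 7 tested genes were lower and 0 higher, where 15.6% of all genes were lower and 14.3% higher. Several of these genes passed the filter through their control arrays, so the count among the tested genes is a description only. Without the filter all 10 genes could be tested, and 5 of 10 were lower, where 11.1% of 18193 genes were lower. All 10 log2 fold changes were below 0, and their median was -0.98, against 0.01 for all genes. Without scaling, which moved the median of all genes to 0.26, 4 of the 7 were lower, and 651 of all genes were lower and 1750 higher, against 2127 lower and 1949 higher with it. In 6 of the 7 tested genes every RA array lay below every control array after normalization, which was the case for 22.2% of all genes tested.

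**Figure D2:**
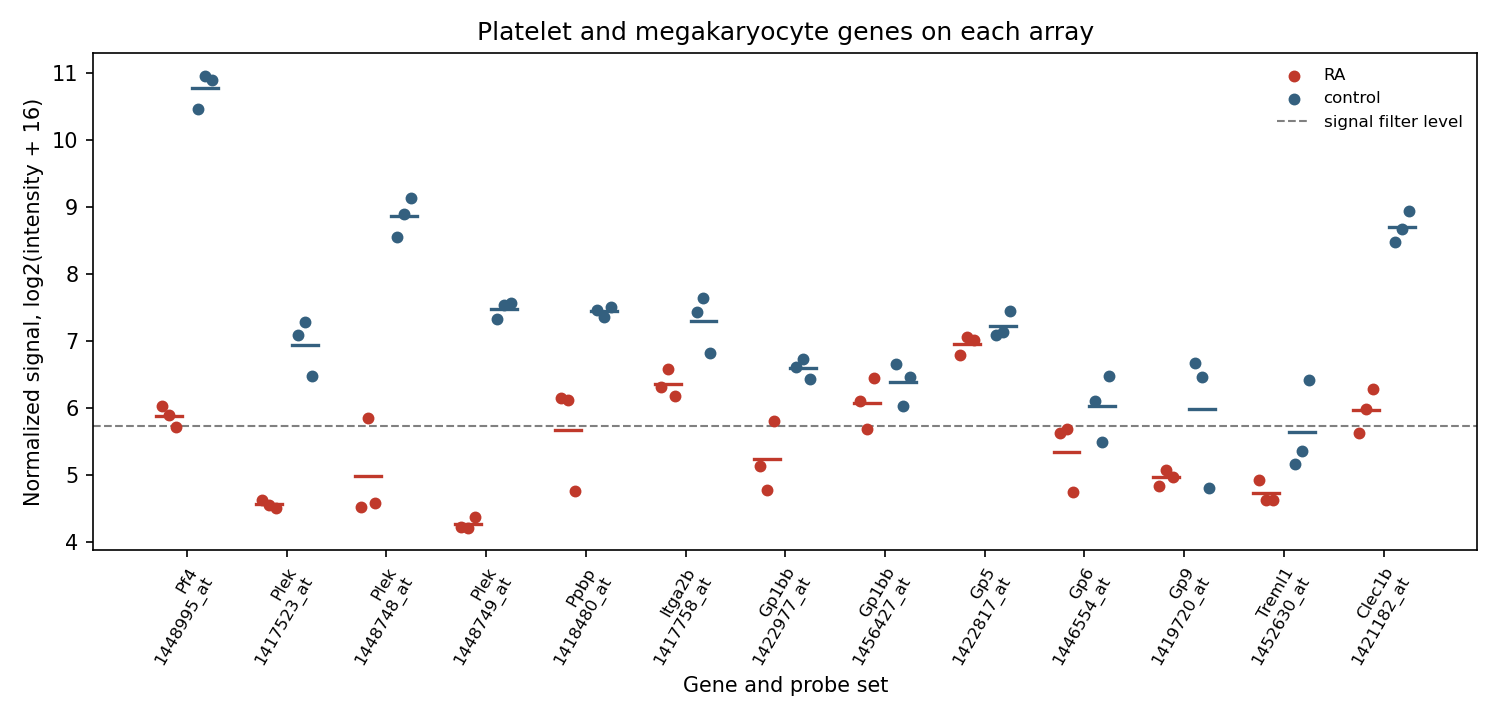
Normalized log2 signal of the 13 probe sets annotated to 1 of the 10 genes, with a point for each array and a bar for the mean, RA arrays (red) left of control arrays (blue). The dashed line is the filter level of 5.74. The groups stand furthest apart for Pf4 and overlap for Gp6, Gp9 and the probe set 1456427_at of Gp1bb.

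Of the chemokines, Pf4 encodes platelet factor 4 (CXCL4), which is stored in the alpha granules and released on activation. Its deposited intensity was 52.2, 48.1 and 41.4 on RA arrays 1, 2 and 3, against 1496, 1966 and 1163 on control arrays 1, 2 and 3. All RA arrays lay close together and far below the dimmest control array, which was array 3. On the normalized log2 scale Pf4 averaged 5.88 ± 0.15 with RA and 10.77 ± 0.27 in controls (SD, n = 3 each), a log2 fold change of -4.89 ± 0.16 (SE, limma adjusted p = 2.39e-09). The RA mean lay just above the filter level and RA array 3 below it. Leaving out each array in turn gave -5.02 to -4.79.

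Ppbp encodes pro-platelet basic protein, the precursor of a neutrophil-attracting chemokine of the same granules. Its deposited intensity was 58.5, 58.8 and 12.8 on RA arrays 1, 2 and 3, against 168, 161 and 115 on control arrays 1, 2 and 3. RA array 3 was lower than the other RA arrays, and the groups did not overlap. The log2 fold change was -1.76 ± 0.34 (SE, limma adjusted p = 0.00239). Without RA array 3 it was -1.31, and without RA array 1 it was -2.01, with the call kept in both cases. The normalized RA mean of 5.68 lay below the filter level, while the control mean was 7.44.

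Srgn encodes serglycin, the proteoglycan that in mouse platelets is known to hold Pf4 in the alpha granule. It went the other way from both chemokines, with a log2 level of 9.96 ± 0.14 with RA and 5.87 ± 0.69 in controls (SD, n = 3 each) and a log2 fold change of 4.09 ± 0.27 (SE, limma adjusted p = 8.47e-07). Control array 3 of Srgn, at 5.10 on the log2 scale, lay below the filter level, so the size of this rise is open to background. Other cells than megakaryocytes make serglycin, parietal endoderm among them, and the array does not tell which cells carried it.

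Plek encodes pleckstrin, the main substrate of protein kinase C in platelets, which leukocytes also make. It had 3 probe sets, and on each of them every RA array lay below every control array. The brightest, 1448748_at, read 7.87, 45.7 and 9.19 on RA arrays 1, 2 and 3, against 390, 482 and 350 on control arrays 1, 2 and 3. RA array 2 stood above the other RA arrays on this probe set only, since the probe set 1448749_at read 3.06, 2.83 and 5.57 on RA arrays 1, 2 and 3, against 150, 184 and 120 on control arrays 1, 2 and 3. The log2 fold changes were -3.87 ± 0.33 for the brightest probe set (SE, limma adjusted p = 6.01e-06), -3.20 for 1448749_at and -2.38 for 1417523_at. When each kept probe set was tested on its own, an alternative chosen after seeing the data, all 3 passed with a limma adjusted p of at most 0.000342. The RA mean of each probe set lay below the filter level, so these folds are open to background.

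Clec1b encodes CLEC-2, the platelet receptor for podoplanin, through which platelets help to separate lymphatic from blood vessels in the mouse embryo. It read 34.7, 51.9 and 70.2 on RA arrays 1, 2 and 3, against 369, 409 and 309 on control arrays 1, 2 and 3. Every RA array lay far below the control arrays, which spanned 8.48 to 8.94 on the log2 scale after normalization. On the log2 scale Clec1b averaged 5.97 ± 0.33 with RA and 8.70 ± 0.23 in controls (SD, n = 3 each), a log2 fold change of -2.73 ± 0.21 (SE, limma adjusted p = 2.44e-06). The RA mean lay just above the filter level, and RA array 1, at 5.63, lay below it. The ligand gene Pdpn had a log2 fold change of -0.12 ± 0.15 (SE) and did not pass the test (limma adjusted p = 0.605). Downstream of the receptor, the kinase gene Syk had -0.22 ± 0.23 (SE) and did not pass (limma adjusted p = 0.531), while the phospholipase gene Plcg2 rose by 1.03 ± 0.15 on the log2 scale (SE, limma adjusted p = 0.000357).

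Gp6 encodes glycoprotein VI, the platelet collagen receptor, which signals through the Fc receptor gamma chain (Fcer1g). Its probe set read 34.5, 39.1 and 12.3 on RA arrays 1, 2 and 3, against 49.7, 32.5 and 52.5 on control arrays 1, 2 and 3. The groups overlapped, since control array 2 lay below the 2 brighter RA arrays. In the fit without the filter the log2 fold change was -0.67 ± 0.36 (SE, limma adjusted p = 0.236). Fcer1g had a log2 fold change of -0.73 ± 0.26 (SE) and just missed the threshold (limma adjusted p = 0.0542). The collagen genes Col3a1 and Col1a2, whose products this receptor binds, were lower with RA, with log2 fold changes of -2.38 ± 0.07 and -2.13 ± 0.12 (SE, limma adjusted p at most 2.26e-07).

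Itga2b encodes integrin alpha IIb (CD41), the fibrinogen receptor subunit of platelets, which also marks the earliest blood progenitors of the mouse embryo. Its deposited intensity was 67.8, 87.7 and 64.1 on RA arrays 1, 2 and 3, against 165, 198 and 69.0 on control arrays 1, 2 and 3. Control array 3, the array with the lowest signal, lay within the range of the RA arrays on this scale. After normalization it was at 6.82 and above all RA arrays, and the log2 fold change was -0.94 ± 0.25 (SE, limma adjusted p = 0.0141). The call was lost without control array 1 or 2 (-0.85 and -0.77, limma adjusted p = 0.0590 and 0.0739) and without scaling (-0.75, limma adjusted p = 0.0676). Without control array 3 the value was -1.20. The partner subunit gene Itgb3 lay below the filter, with 5.52 ± 0.23 with RA and 5.14 ± 0.40 in controls (SD, n = 3 each) and a log2 fold change of 0.39 ± 0.28 (SE, limma adjusted p = 0.396 without the filter). The genes for the fibrinogen chains Fgb, Fga and Fgg, the ligand of the complete integrin, were all lower with RA, with log2 fold changes of -5.12, -3.12 and -2.36. Their RA means of 5.11, 5.51 and 5.63 lay below the filter level, so these folds are open to background.

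Gp1bb, Gp5 and Gp9 encode subunits of the GPIb-IX-V complex, which binds von Willebrand factor. The brightest probe set of Gp1bb, 1456427_at, read 56.2, 39.4 and 80.6 on RA arrays 1, 2 and 3, against 82.1, 54.7 and 51.6 on control arrays 1, 2 and 3, and the groups overlapped. A second probe set of Gp1bb, 1422977_at, read 19.9, 12.5 and 45.4 on RA arrays 1, 2 and 3, against 78.6, 99.6 and 50.2 on control arrays 1, 2 and 3, with no overlap. Its log2 fold change was -1.35 ± 0.33 (SE, limma adjusted p = 0.0124 when each kept probe set was tested). Whether Gp1bb passed thus rests on the probe set taken. The RA mean of this second probe set, 5.24, lay below the filter level, so its fold is open to background. The mean over both probe sets gave -0.83 ± 0.28 (SE, limma adjusted p = 0.0552). The probe set shared with Septin5 had a log2 fold change of -0.01 and cannot be assigned to Gp1bb.

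Gp5, the subunit cut by thrombin, read 100.3, 128 and 125 on RA arrays 1, 2 and 3, against 122, 136 and 110 on control arrays 1, 2 and 3. These intensities overlapped. After normalization all RA arrays lay below the controls, but the log2 fold change of -0.27 ± 0.19 (SE, limma adjusted p = 0.324) did not pass, and without scaling it was -0.05.

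Gp9 showed the widest spread among the controls. It read 13.7, 19.4 and 17.4 on RA arrays 1, 2 and 3, against 83.5, 79.7 and 8.74 on control arrays 1, 2 and 3. Control array 3 thus lay below every RA array, while the other control arrays lay far above them. In the fit without the filter the log2 fold change was -1.02 ± 0.44 (SE, limma adjusted p = 0.144). Without control array 3 it was -1.64 ± 0.28 (SE, limma adjusted p = 0.00459), and leaving out any other array kept it between -1.07 and -0.68 with no call. Vwf, the gene of the ligand of this complex, had a log2 fold change of -0.56 ± 0.29 (SE, limma adjusted p = 0.171).

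Treml1 encodes TLT-1, a receptor of the granule membrane that reaches the surface of activated platelets. Its probe set read 15.5, 9.53 and 10.0 on RA arrays 1, 2 and 3, against 19.1, 28.2 and 49.5 on control arrays 1, 2 and 3. All arrays of both groups but control array 3 lay below the filter level after normalization, so the values of this gene are open to background in both groups. The RA arrays still lay below the control arrays. The log2 fold change was -0.92 ± 0.33 (SE, limma adjusted p = 0.0814 without the filter), and it was -0.55 without control array 3.

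**Figure D3:**
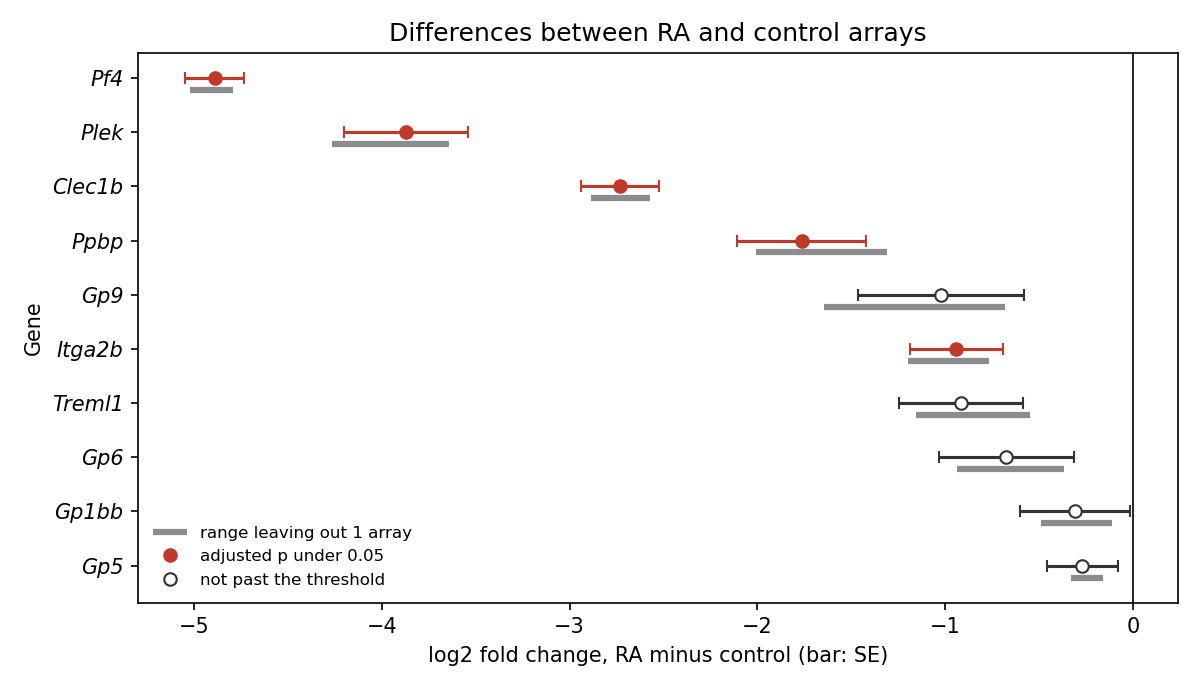
Log2 fold change (RA minus control) of the 10 genes with the SE of the limma fit, and below each, in grey, the range when 1 array was left out. Filled points passed an adjusted p of 0.05. Gp6, Gp9 and Treml1 are from the fit without the signal filter, and the grey bar of Gp9 reaches -1.64, its value without control array 3.

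Other genes of platelet function are set beside the 15.6% of all genes that were lower and the 14.3% that were higher. Of 18 tested receptor and signalling genes 5 (27.8%) were lower and 3 (16.7%) higher with RA, with a median log2 fold change of -0.17 against 0.01 for all genes. Without scaling 2 were lower, and with the filter at the 60th percentile 3 were. The thrombin receptor gene F2r, the prostaglandin receptor gene Ptger3 and the talin gene Tln1 were 3.18, 4.46 and 1.92 times lower, and Tln1 did not pass without scaling or as the mean of its probe sets. Of 20 granule and secretion genes 3 (15.0%) were lower and 2 (10.0%) higher (median -0.03), which is near the shares of all genes. Without scaling 1 was lower, and without RA array 1 there were 5 lower and 1 higher. The higher count was also 1 without RA array 2, without control array 1, without the filter and as the mean of probe sets. The small GTPase gene Rab27b was 2.03 times lower and did not pass without scaling. The transglutaminase gene F13a1, which macrophages also make, was 2.85 times lower. Its call was lost without control array 2 or 3, without RA array 2 or 3, and without the variance trend. The RA mean of F13a1, 5.67, lay below the filter level, so its fold too is open to background. The matrix gene Sparc was 1.55 times lower and did not pass without scaling, with median scaling or as the mean of its probe sets.

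Among 15 genes of the platelet cytoskeleton and of eicosanoid synthesis 8 (53.3%) were lower and 0 higher (median -0.57). With median scaling, and without control array 3 alone or together with RA array 1, 1 gene was higher. The myosin light chain gene Myl9, which smooth muscle also makes, differed most and was 7.45 times lower. RA arrays 1 and 3 of Myl9, at 5.67 and 5.08 on the log2 scale, lay below the filter level. The G protein subunit gene Gng11, the phospholipase gene Pla2g4a and the thymosin gene Tmsb4x were 3.67, 3.13 and 2.45 times lower. Of the ligands, partners and receptors of the 10 genes, 7 of 10 tested were lower and 0 higher (median -2.08), with 1 higher without the variance trend. The matrix protein gene Fn1 was 3.63 times lower.

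Of 19 tested transcription factor genes known from megakaryocytes 7 (36.8%) were lower and 1 higher (median -0.48). Fli1, an ETS factor required for megakaryocyte maturation, was at 5.10, 5.11 and 5.39 on the log2 scale on RA arrays 1, 2 and 3, against 7.58, 7.69 and 7.08 on control arrays 1, 2 and 3, which made it 4.76 times lower (limma adjusted p = 6.82e-05). The RA arrays of Fli1 were all below the filter level. Ets1 and Meis1 were 2.79 and 3.36 times lower, and Srf was 1.35 times higher but did not pass without scaling or as the mean of its probe sets. Gata1, the GATA factor of red cells and megakaryocytes, had a log2 fold change of -0.65 ± 0.25 (SE) and did not pass (limma adjusted p = 0.0777), although its groups did not overlap and it passed without the variance trend (limma adjusted p = 0.0296). Nfe2, a factor of platelet release, lay below the filter with a log2 fold change of -0.52 ± 0.34 (SE, limma adjusted p = 0.342 without the filter). The GPIb alpha gene Gp1ba is not analysed here.

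**Figure D4:**
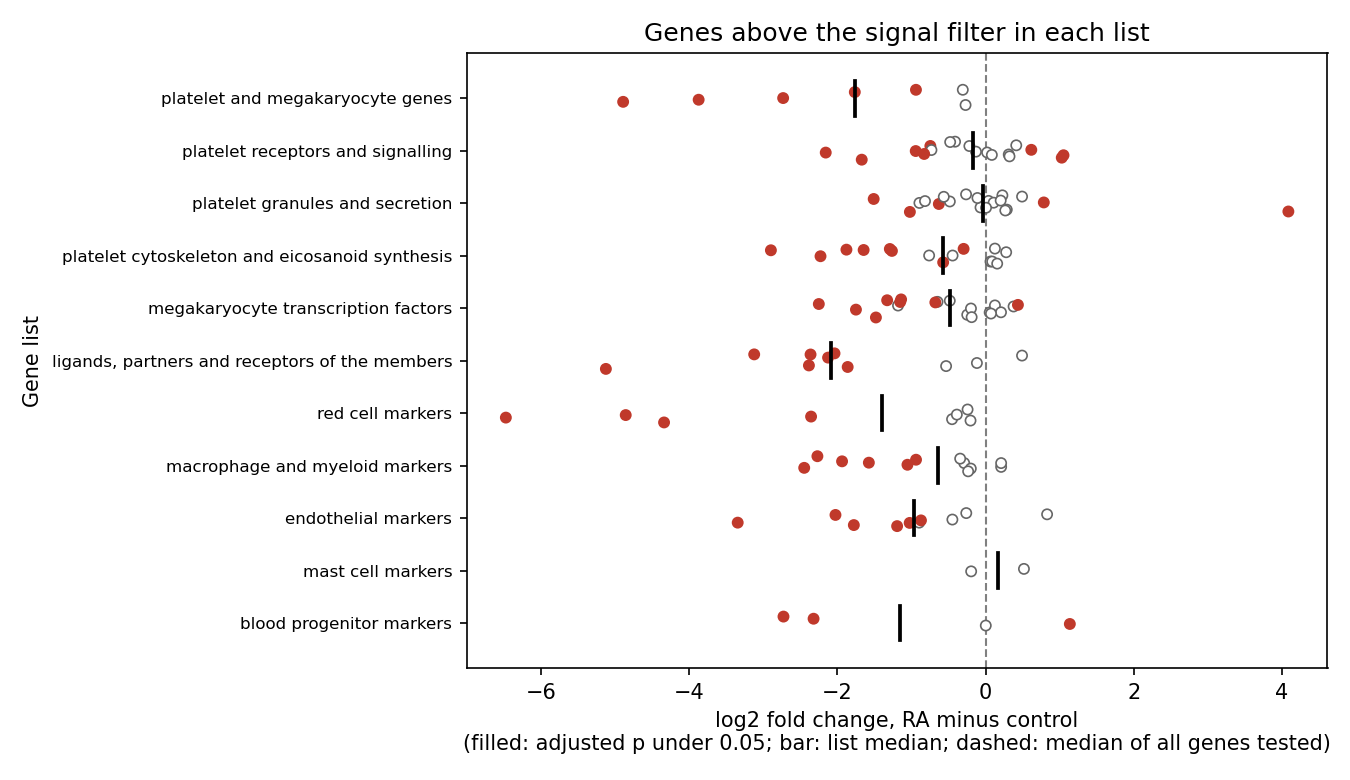
Log2 fold change (RA minus control) of the genes above the signal filter in each list, with filled points past an adjusted p of 0.05, a black bar for the median of the list and a dashed line for the median of all genes tested. The top row holds the 7 of the 10 platelet and megakaryocyte genes that passed the filter, and the rightmost point is Srgn.

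Some markers of other blood and vessel cells were lower with RA as well, while others did not pass the test, and their part in these results was not tested. For the 10 platelet genes the intensities were summed over their brightest probe sets after normalization. The sum ranged from 394 to 481 on RA arrays, against 2775 to 3564 on control arrays. Most of this platelet sum on control arrays came from Pf4, Plek and Clec1b, with control means of 10.77, 8.86 and 8.70 on the log2 scale. The other platelet genes had control means of at most 7.44. For 10 annotated red cell markers the sum ranged from 657 to 740 on RA arrays, against 15539 to 17634 on control arrays. Most of the sum on control arrays came from 3 globins: for the other 7 markers it ranged from 303 to 400 on RA arrays, against 476 to 586 on control arrays. The counts of lower and higher genes in these marker lists stand beside 15.6% lower and 14.3% higher among all genes tested. Of 8 tested red cell genes 4 were lower and 0 higher, namely the globins Hbb-y, Hbb-bh1 and Hba-x and the haem synthesis gene Alas2. The RA mean of Alas2, 4.74, lay below the filter level, so its fold is open to background. Klf1, Ermap, Epor and Slc4a1 had log2 fold changes of -0.39, -0.45, -0.24 and -0.20 and did not pass. For 15 macrophage and myeloid markers the sum ranged from 1024 to 1201 on RA arrays, against 1412 to 2187 on control arrays. Of 12 tested 6 were lower and 0 higher, with C1qb 5.45 times, Tyrobp 4.82 times, Cd53 3.83 times and Cd68 2.98 times lower. With the filter at the 60th percentile 2 were lower, and leaving out both RA array 1 and control array 3 gave 1 higher. The macrophage genes Csf1r, Laptm5, Adgre1, Spi1 and Mrc1 had log2 fold changes of 0.21, 0.21, -0.29, -0.24 and -0.20 and did not pass. Leukocytes also make pleckstrin, and the part of myeloid cells in the Plek result was not tested. The mean of 8 of the 15 lay below the filter level with RA, and that of 2 in controls. C1qb, Cd53 and Cd68, with RA means of 5.01, 5.07 and 5.54, were among the 8, so their folds are open to background.

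For 12 endothelial markers the sum ranged from 968 to 1166 on RA arrays, against 2276 to 2478 on control arrays. Of 10 tested 6 were lower and 0 higher, with Cldn5 10.2 times, Tek 4.07 times, Kdr 3.43 times and Ramp2 1.83 times lower. Ramp2 did not pass without scaling. The RA means of Cldn5 and Tek, 4.89 and 5.45, lay below the filter level, so their folds are open to background. The mean of 4 of the 12 lay below the filter level with RA, and that of 1 in controls. Flt1 had a log2 fold change of 0.83 ± 0.30 (SE, limma adjusted p = 0.0569), and 1 endothelial gene was higher without scaling, with a pseudocount of 64, with the replicate block and without control array 2. Of 4 tested blood progenitor markers Cd34 and Cd93 were lower (log2 fold changes of -2.73 and -2.32) and Myb was 2.20 times higher. The RA means of Cd34 and Cd93, 4.79 and 5.54, lay below the filter level, so their folds too are open to background. The mean of 6 of 8 annotated progenitor markers lay below the filter level with RA, and that of 3 in controls. With the filter at the 60th percentile 1 progenitor marker was lower. Cd34 and Cd93 are also made by endothelium. Mast cell markers were mostly near background, with 6 of 8 below the filter level in both groups, and the 2 tested genes, Tpsb2 and Kit, had log2 fold changes of 0.52 ± 0.29 and -0.19 ± 0.18 (SE).

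Without RA array 1, the array with the high Gapdh ratio, the log2 fold changes were -4.95 for Pf4, -3.64 for Plek, -2.57 for Clec1b, -2.01 for Ppbp and -0.92 for Itga2b, and all 5 passed the test. The actin ratio of the RA arrays that stayed in was still above that of every control array.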

How the data were processed

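Biotin-labelled cRNA from whole embryoid bodies was hybridized to 1 Affymetrix array for each of 6 samples (3 RA, 3 control). The deposited values are linear intensities per probe set, made by the authors with GCOS at default settings, per the labels' descriptions; its version and signal parameters are not stated there. Of 45101 probe sets, 64 array controls were left out. Because the arrays were not on a common scale, log2(intensity + 16) was quantile normalized, which assumes like signal distributions in both groups. The pseudocount understates the change of dim genes. Probe sets above the 40th percentile of mean signal (27022) were kept, and the brightest with a single symbol stood for its gene. Symbols were read from the platform annotation: 34945 probe sets had 1 symbol, 932 several and 9160 none, and 34741 matched a RefSeq gene. Groups were compared over 13608 genes with limma 3.58.1 in R 4.3.3 (lmFit, eBayes with trend, two-sided, Benjamini-Hochberg, threshold 0.05). The procedure was run on simulated data with independent noise and no RNA integrity difference between groups, and no conclusion here rests on it. The number of arrays limits the precision. The 10 genes, the related lists and the motifs were chosen with earlier results of these data known. All 10 genes were described. From each related list, up to 4 called genes with the smallest p were named (at most 3 of one direction where both occurred), plus Srgn, Itgb3, Gp1ba, Gata1, Fli1, Nfe2 and Vwf. Pdpn, Syk, Fcer1g, Fga and Fgg were added as direct partners, and markers that did not pass were named, after their values were seen. Start regions came from the RefSeq table for GRCm38.p6. Alternatives covered scaling, pseudocount, filter, probe set, variance model, replicate number and arrays left out. Genes of the lists that had no probe set of their own are not analysed here.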

Additional observations from a re-analysis of the deposited data

How the results depend on the processing

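Over the alternatives to scaling, pseudocount, filter, probe set choice, variance model, replicate number and arrays used, 107 of 110 values of the 7 tested platelet genes kept their direction and their side of the threshold. The other 3 were those of Itga2b given above, and 0 reversed. The filter, the replicate block and the variance model left the log2 fold changes of these genes as they were. Under those settings only the p-values could move, so the kept direction there says nothing. The number of platelet genes lower with RA was 5, with 4 to 5 when 1 array was left out, 4 without scaling, 4 with the filter at the 60th percentile, where Ppbp was no longer tested, and 6 when each kept probe set was tested on its own or RA array 1 and control array 3 were both left out. In the last case the sixth gene was Gp9 (-1.58, limma adjusted p = 0.0141). Over all genes, 651 were lower without scaling, against 2127, and 72.9% of calls were then higher, against 47.8%. The median of all genes was 0.26 without scaling. Leaving out 1 array gave 1475 to 1837 genes higher and 1681 to 1951 lower, and 25 to 31 lower and 5 to 7 higher genes in the related lists. With the replicate number as a block (replicate block), 1775 genes were higher and 1949 lower, and 5 platelet genes were lower. The numbers are not known to pair the arrays: deviations from the group means correlated at -0.09, -0.01 and -0.03 between same-numbered arrays, and 0 of 6 arrays correlated best with its own number. Signal near background limits Gp6, Gp9 and Treml1, and the RA levels of Plek, Ppbp and the Gp1bb probe set 1422977_at. Pf4 and Clec1b also had 1 RA array each below the filter level.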

Other observations

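Tubb1, which encodes the beta tubulin made almost only in megakaryocytes and platelets, was picked out of the cytoskeleton list after its values were seen. On the log2 scale it was at 5.69, 4.76 and 4.73 on RA arrays 1, 2 and 3, against 7.23, 7.43 and 7.20 on control arrays 1, 2 and 3. The groups did not overlap and Tubb1 was 4.68 times lower with RA (limma adjusted p = 0.000252), with all RA arrays below the filter level. Cavin2, which platelets and endothelium both make, was 2.40 times lower (limma adjusted p = 0.000145). Fermt3, which encodes the integrin activator kindlin-3 of blood cells, was 1.78 times lower (limma adjusted p = 0.00761).

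Rasgrp2, which encodes the main activator of Rap1 in platelets, went the other way and was 2.07 times higher with RA (limma adjusted p = 0.00299), with 8.01, 7.66 and 7.64 on the log2 scale on RA arrays 1, 2 and 3, against 7.11, 6.47 and 6.57 on control arrays 1, 2 and 3. Cd9, a surface protein of platelets and of many other cells, pluripotent ones among them, was 1.53 times higher (limma adjusted p = 0.00174). These genes too were picked after their values were seen.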
